A study of Homo sapiens with 12 samples.

Results

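The libraries described here are siControl normoxia replicates 1 and 3, 2 of the 12 libraries of a study of NOX4 in BCPAP cells. They were chosen from their measured values, because their gene levels stood apart from those of the other 4 libraries grown at 20% oxygen. The difference between this pair and the other 4 is therefore given as a description, with no test. A further 6 libraries came from 1% oxygen.

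BCPAP is an established human papillary thyroid cancer line, and all libraries were made from it. Cells had been transfected with a scrambled siRNA, siControl, or with siNOX4, which targets NOX4, a membrane enzyme that produces hydrogen peroxide from NADPH and oxygen. They were kept at 20% oxygen (normoxia) or 1% oxygen (hypoxia) in serum-containing medium. Each of the 4 groups had 3 libraries of total RNA, which the labels call biological replicates from independent transfections. The pair is siControl at 20% oxygen, replicates 1 and 3, and the other normoxia libraries are siNOX4 replicates 1 to 3 and siControl replicate 2. The other 4 thus mix both siRNAs, and the labels give no treatment, date or batch that parts the pair from siControl replicate 2.

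The label given to this split is an osmotic-like state, marked by SLC5A3, SLC6A12, AKR1B1, PTGS2 and AKR1C2. Cells in hypertonic surroundings are known to take up or make small organic osmolytes, which hold water without disturbing proteins. The transcription factor NFAT5, also called TonEBP, drives the carriers SLC5A3 (myo-inositol), SLC6A12 (betaine) and SLC6A6 (taurine) and the enzyme AKR1B1, which makes sorbitol. This programme is best known from the inner medulla of the kidney, where PTGS2, the inducible cyclooxygenase, is also raised by salt.

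Levels are CPM, the counts of a gene scaled to the effective size of its library. Summed counts per library ran from 16559386 to 21282835. The pair had 25667 and 25483 genes with a count, against 24592 to 24712 in the other normoxia libraries and 25511 to 26309 in hypoxia. Mitochondrial transcripts held 0.989% and 0.936% of counts in the pair, against 0.886% to 0.984% in the other normoxia libraries, and protein-coding genes held 96.8% in each of the pair, against 96.6% to 97.0%. NOX4 was counted 8 and 6 times in the pair, 1, 5 and 3 times in siNOX4 normoxia and 13 times in siControl normoxia replicate 2. At so few counts no order between these libraries can be read for NOX4.

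The pair formed a state of its own, and its replicates were close to each other. Distances were counted over the 15238 genes with at least 1 CPM in at least 2 normoxia libraries. The number of genes at least 2-fold apart was 137 between replicates 1 and 3. It was 2245 to 2857 between a library of the pair and another normoxia library, and 93 to 180 among those other 4. From the hypoxia libraries the pair differed by 3084 to 3863 genes, and the other normoxia libraries differed from hypoxia by 2887 to 3726. On this gene set, distances to the pair were thus nearer in size to those between oxygen levels than to those between replicates. Genes that reached the floor only in hypoxia were left out, while genes that reached it only in the pair were kept. The distances to hypoxia can therefore be understated beside those to the pair. The value just inside the split was 2245 genes, between siControl replicate 3 and siNOX4 replicate 3, and the value just outside it was 180 genes, between siNOX4 replicates 2 and 3. The counts of replicates 1 and 3 differed by more than sampling noise, with a chi-square of 9.22 per degree of freedom, against 2.28 to 14.7 among the other replicate pairs that exclude this split. The biological coefficient of variation, the spread between replicates beyond counting noise, was 31.6% in the siControl normoxia group that holds the pair, against 7.08% in siNOX4 normoxia, 8.58% in siNOX4 hypoxia and 5.35% in siControl hypoxia.

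**Figure D1:**
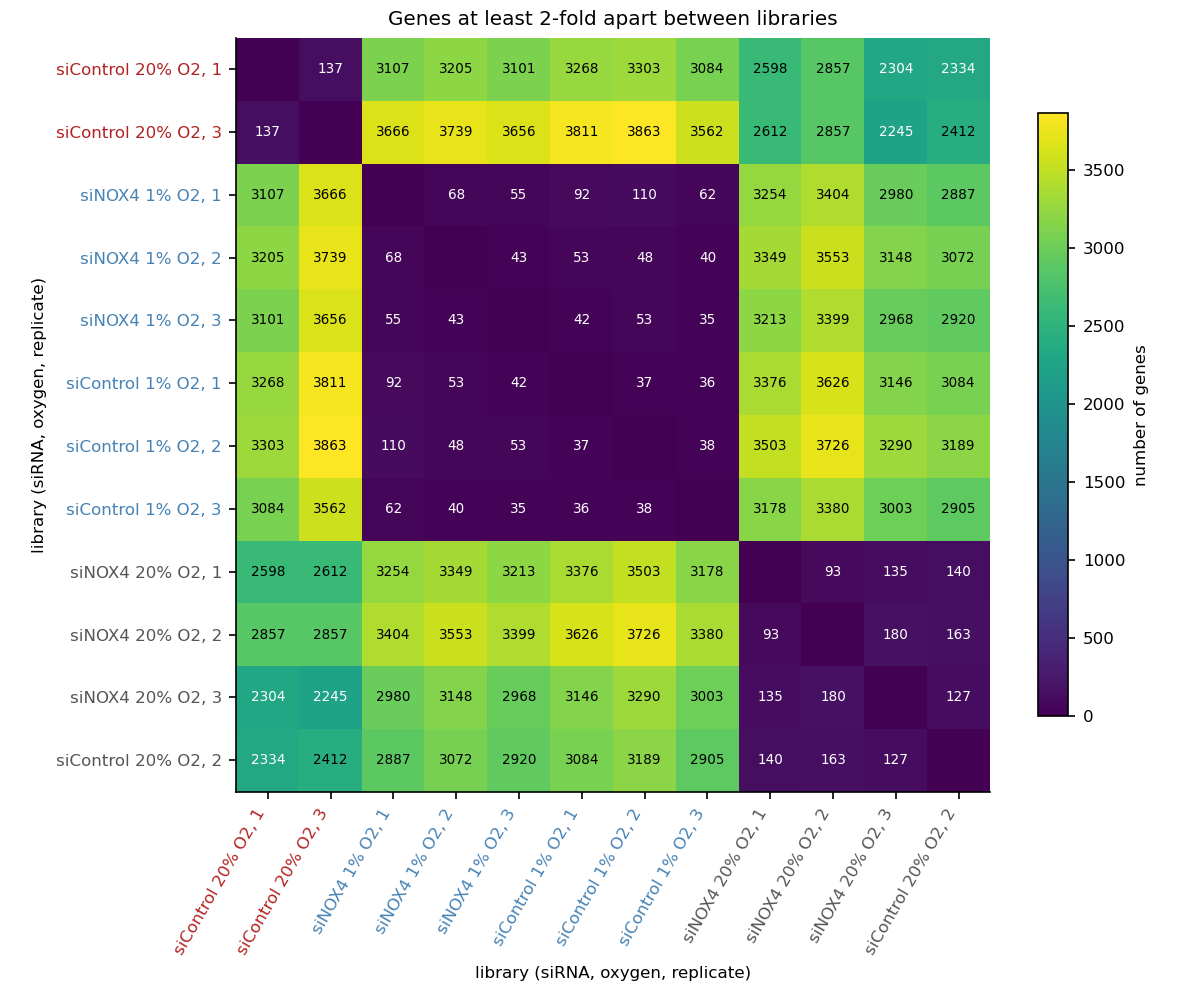
Number of genes at least 2-fold apart between each pair of the 12 libraries, on CPM plus 0.5, over 15238 genes with at least 1 CPM in at least 2 normoxia libraries. Red labels are the pair, blue labels hypoxia and grey labels the other normoxia libraries. The pair differs by 137 genes within itself and by 2245 to 2857 genes from the other 4 normoxia libraries.

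A gene was counted as higher when the lower of the pair was at least 2-fold above the highest of the other 4 normoxia libraries, and as lower in the mirrored case. This gap between the nearest libraries averages nothing. It was taken on CPM plus 0.5, which understates the gap of low genes. A gene was considered if it had at least 1 CPM in at least 2 normoxia libraries. This floor could be met through the pair alone, and such a gene lay above the other 4 by the filter itself. In all, 15238 genes were considered. Of these, 778 (5.11%) were higher and 375 (2.46%) were lower in the pair. Without siControl normoxia replicate 1, where replicate 3 stands for the pair, 600 genes were lower. At 4-fold there were 159 higher and 28 lower genes, and at 8-fold there were 50 and 4. With no minimum, both libraries of the pair lay above all other 4 for 5284 genes (34.7%) and below them for 5088 (33.4%). The widest gaps were therefore mostly on the higher side, while small shifts were about as frequent in either direction. Scaling centres the bulk of genes, so the balance of small shifts follows in part from the scaling. Between replicates 1 and 3, 742 of the 778 higher genes and 358 of the 375 lower genes lay within 1.5-fold. Genes near the 2-fold threshold included OGDH of the citric acid cycle, just inside at 2.02-fold, and the matricellular gene CYR61, just outside at 1.96-fold lower.

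**Figure D2:**
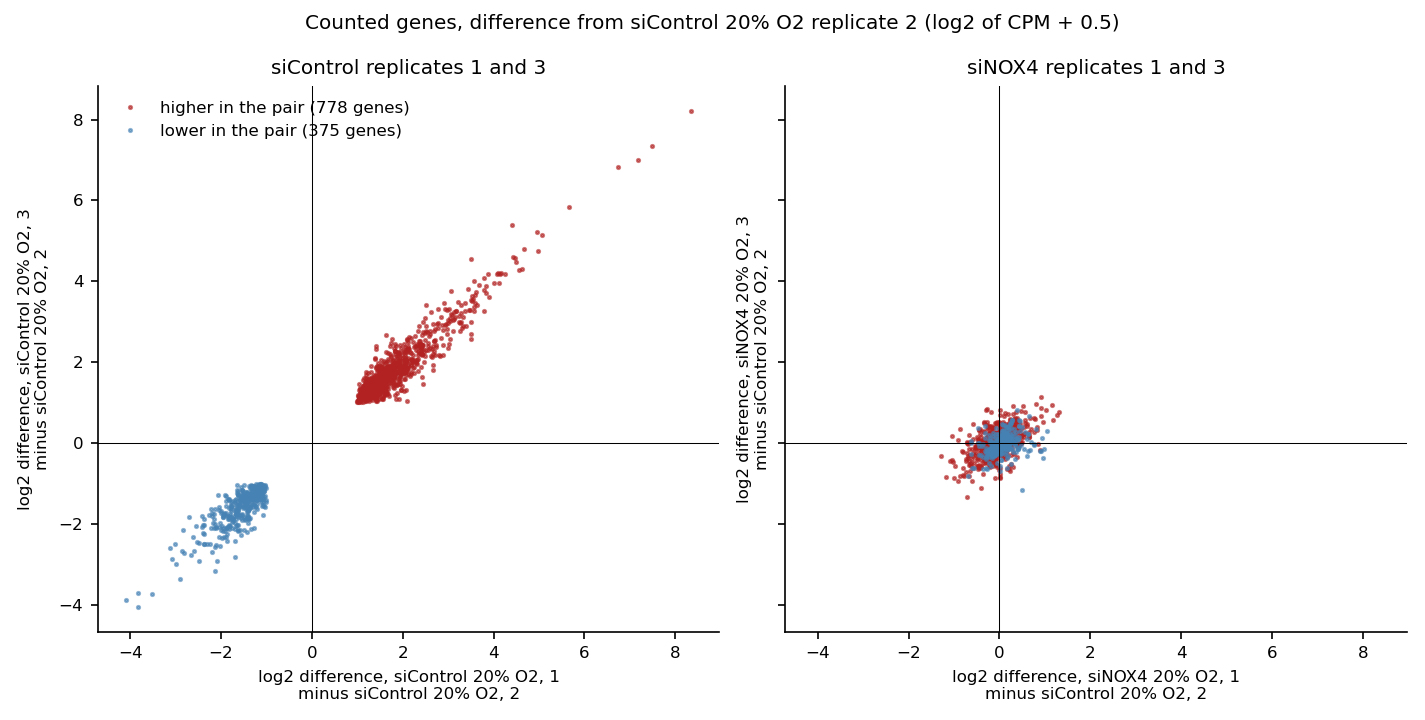
Log2 difference (CPM plus 0.5) from siControl normoxia replicate 2 of the 778 higher genes (red) and 375 lower genes (blue), 1 point per gene. Left, siControl normoxia replicates 1 and 3 lie along the diagonal. Right, the same genes in siNOX4 normoxia replicates 1 and 3 lie around 0. The genes were selected on these values, so the separation on the left is a description.

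The shares of counts held by the counted genes follow, among the normoxia libraries, from how these genes were selected. Higher genes took 6.70% and 6.67% of counts in the pair, against 1.44% to 1.58% in the other normoxia libraries and 1.70% to 1.80% in hypoxia. Lower genes took 1.79% and 1.73% in the pair, against 4.59% to 4.98% in the other normoxia libraries and 4.15% to 4.47% in hypoxia. The counted genes were spread over the chromosomes, with 2.99% to 7.21% of the genes of a chromosome higher and 1.16% to 4.22% lower. The median log2 difference from siControl replicate 2 ran from −0.11 to 0.08 over chromosomes in replicate 1 and from −0.07 to 0.18 in replicate 3, against −0.05 to 0.05 in the siNOX4 normoxia libraries. Long intergenic noncoding RNAs were counted more often than all genes, with 65 of 543 higher (11.97%) and 28 lower (5.16%), and zinc finger genes named ZNF had 48 of 432 higher (11.1%) and 2 lower. Median length was 4295 bases for higher genes, 4131 for lower genes and 4700 for all genes considered, and median GC content was 48.1%, 50.2% and 48.0%. The median level over the normoxia libraries was 7.04, 17.4 and 18.1 CPM. Levels of the noncoding and zinc finger genes were not compared with those of all genes, so the part of low expression in their shares was not tested.

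Among the genes of osmolyte transport and cell volume, 7 of 21 considered were higher and 1 was lower in the pair. The 3 markers of the label in this list chose the libraries. Without them 4 of 18 were higher and 1 was lower (22.2% and 5.56%, against 5.11% and 2.46% of all genes), and the markers are given as values only. Of those 4, AQP1 and AQP3 reached the 1 CPM floor only in the pair, so the filter itself set their direction. SLC5A3 (ENSG00000198743) stood at 5106 and 5290 CPM in the pair, against 578, 557 and 620 CPM in siNOX4 normoxia and 624 CPM in siControl normoxia replicate 2. SLC6A12 stood at 178 and 160.3 CPM in the pair, against 0.699, 0.466 and 0.725 CPM with siNOX4 and 0.495 CPM in siControl replicate 2. AKR1B1 stood at 4229 and 3755 CPM in the pair, against 489, 440 and 478 CPM with siNOX4 and 533 CPM in siControl replicate 2. The nearest libraries of the 2 sides were 8.18-fold apart for SLC5A3, 131-fold for SLC6A12 and 7.04-fold for AKR1B1, so the pair and the other 4 did not overlap. SLC5A3 lies within MRPS6 on the same strand, and MRPS6, a mitochondrial ribosomal gene, stood at 1104 and 1169 CPM in the pair, against 171 to 195 CPM in the other 4. The sources used here do not say how reads over both genes were assigned, so the genes cannot be told apart. In bulk RNA, a shift in which cells were present and a shift in RNA per cell cannot be told apart either. The markers lie on GRCh38 at chr21:34073570-34106262 (SLC5A3), chr12:190077-214570 (SLC6A12), chr7:134442350-134459284 (AKR1B1), chr1:186671791-186680427 (PTGS2) and chr10:4987400-5018031 (AKR1C2).

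Other members of the list went with the pair without being markers. SLC38A2, a carrier of neutral amino acids, stood at 3302 and 3871 CPM in the pair, against 906, 879 and 1046 CPM with siNOX4 and 896 CPM in siControl replicate 2. SGK1, a salt- and hormone-regulated kinase, stood at 360 and 736 CPM in the pair, against 145 to 155 CPM with siNOX4 and 116 CPM in siControl replicate 2. Both were above all other normoxia libraries, and SGK1 was one of the few counted genes that differed by 2-fold within the pair. The water channels AQP1 (2.83 and 2.44 CPM) and AQP3 (2.72 and 3.96 CPM) were low but higher than in the other 4, which had at most 0.445 and 0.599 CPM.

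NFAT5 and 2 of its known targets were not counted. NFAT5 itself stood at 183 and 220 CPM in the pair, against 153, 156 and 171 CPM with siNOX4 and 146 CPM in siControl replicate 2, a gap of 1.07-fold. The taurine carrier SLC6A6 was below the other 4, at 179 and 207 CPM against 262, 289 and 296 CPM with siNOX4 and 304 CPM in siControl replicate 2. HSPA4L, a chaperone induced by hypertonicity in mouse, stood at 9.27 and 9.93 CPM in the pair, against 9.99 to 13.9 CPM in the other 4. PNPLA6, which makes the osmolyte glycerophosphocholine, stood at 373 and 362 CPM in the pair, against 192 to 198 CPM, and GPCPD1, which splits it, at 17.4 and 21.4 CPM, against 114, 137 and 112 CPM with siNOX4 and 109.9 CPM in siControl replicate 2. WNK4, a kinase that controls salt carriers, was the counted lower member, at 1.54 and 1.83 CPM against 5.47 to 8.72 CPM. The volume-regulated anion channel gene LRRC8A was below the other 4 by less than 2-fold (86.0 and 78.0 CPM, against 115 to 155 CPM). SLC5A3, SLC6A12 and AKR1B1 thus went with the label but were used to choose it. Of the other genes described, SLC38A2, SGK1, AQP1 and AQP3 were counted as higher, PNPLA6 lay above the other 4 and GPCPD1 was counted as lower, while NFAT5 lay above the other 4 by 1.07-fold and SLC6A6 and HSPA4L lay below. The libraries are named here by siRNA and replicate and not by an osmotic state.

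**Figure D3:**
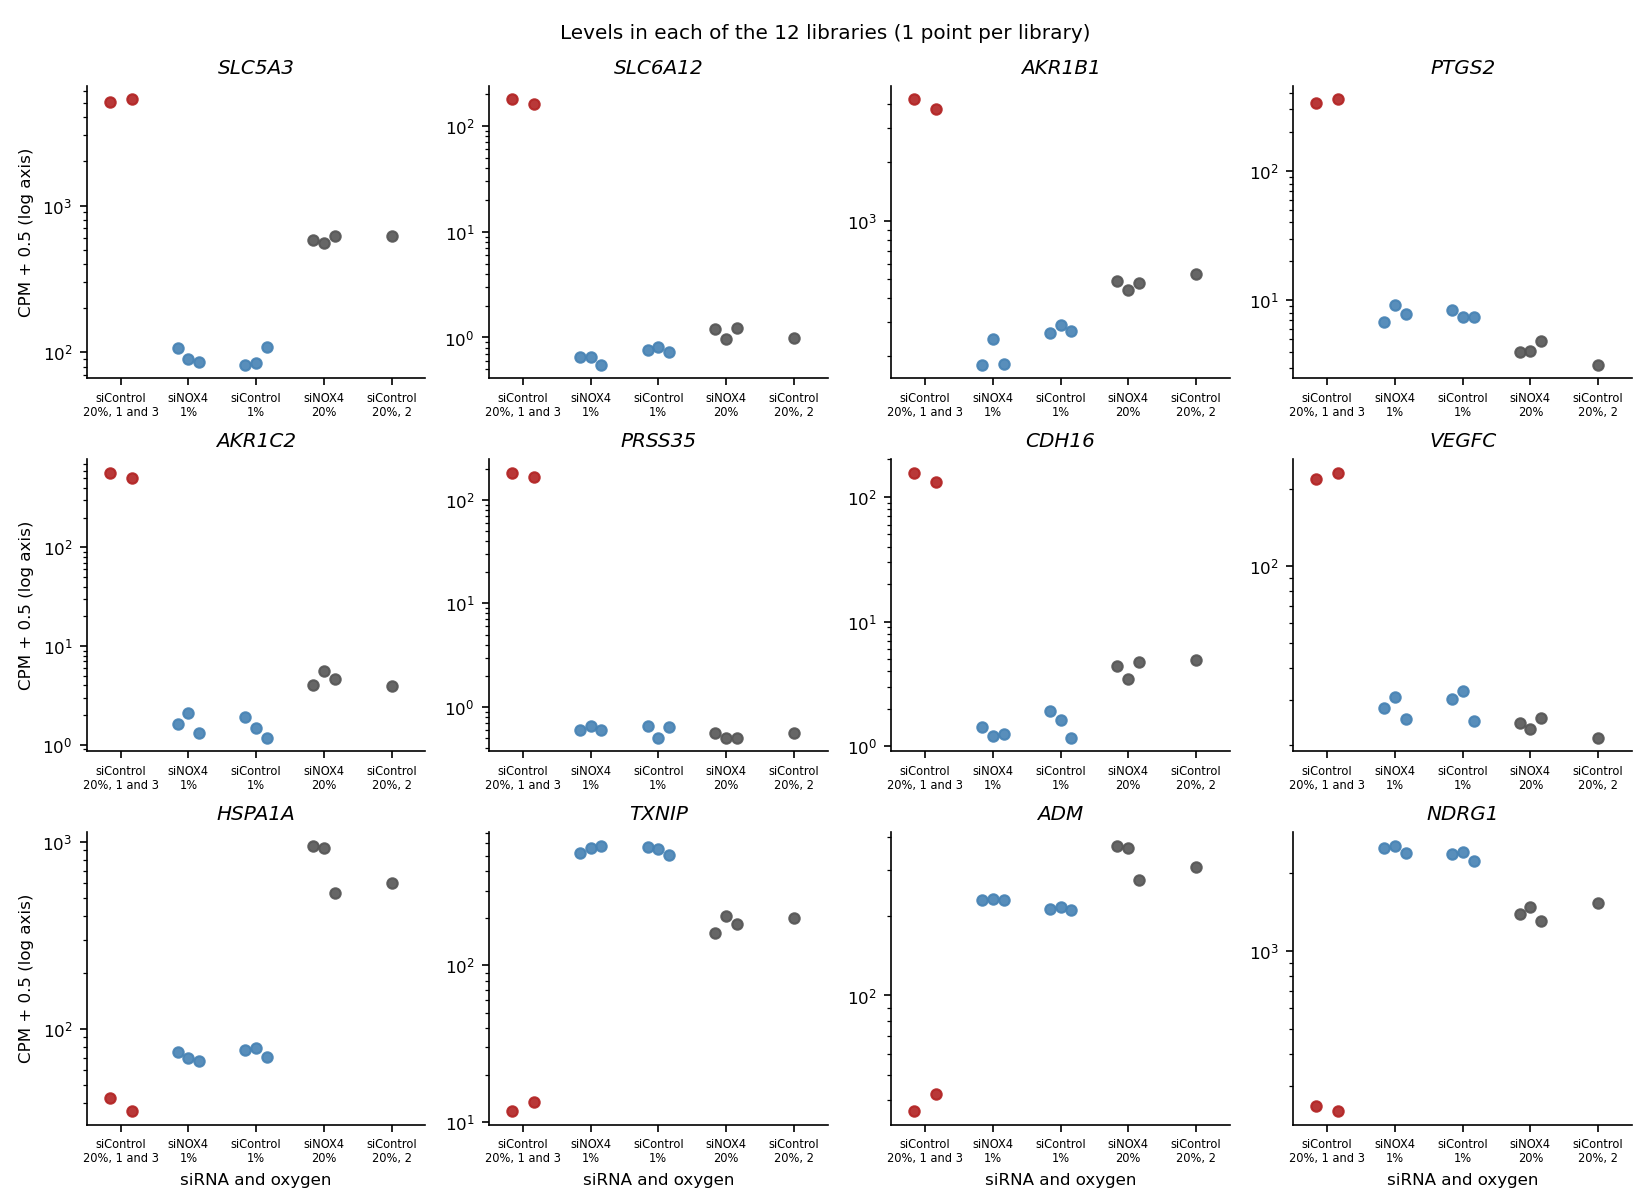
CPM plus 0.5 on a log axis for 12 genes, 1 point per library. The pair (red) stands left of the hypoxia libraries (blue) and the other normoxia libraries (grey). The 8 genes of the upper and middle rows are higher in the pair than in any other library, and the 4 of the lower row are lower than in any other library.

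Several aldo-keto reductases, which reduce aldehydes, ketones and steroids, were also higher. Of the list of aldo-keto reductases and NRF2 targets, 8 of 30 were higher and 0 lower in the pair. Without the marker AKR1C2 it was 7 of 29 (24.1%, against 5.11% of all genes). Of these 7, AKR1B10 and AKR1B15 reached the 1 CPM floor only in the pair, so the filter itself set their direction. With no minimum fold, 13 of the 30 lay above all other 4 and 12 below, against 34.7% and 33.4% of all genes. The list summed to 10180 and 9379 CPM in the pair, below the 11050 to 12740 CPM of the other 4. AKR1C2, a marker of the label, stood at 574 and 508 CPM in the pair, against 3.50, 5.13 and 4.17 CPM with siNOX4 and 3.46 CPM in siControl replicate 2. AKR1C1 stood at 31.7 and 26.5 CPM, against 2.10 to 2.91 CPM in the other 4, and AKR1C3 at 18.7 and 16.6 CPM, against 2.35 to 3.75 CPM. AKR1B10 had 5.14 and 2.50 CPM in the pair and no count in the other 4 normoxia libraries or in hypoxia, which is at least 12.5-fold higher when each of the 4 is given 3 counts. ME1, the cytosolic malic enzyme, stood at 190 and 170 CPM, against 31.8 to 36.8 CPM. These reductases are close copies of each other, and the sources used here do not state how reads that fit several genes were handled, so the split among AKR1C1, AKR1C2 and AKR1C3 and between AKR1B10 and AKR1B15 is uncertain. Outside this family, UGDH, which makes UDP-glucuronate, was also higher, at 113 and 111 CPM against 47.9 to 53.01 CPM, and the epoxide hydrolase EPHX1 was counted as well. Other NRF2 targets were not counted. NQO1, a quinone reductase, stood at 42.6 and 34.7 CPM in the pair, against 55.1 to 67.3 CPM. TXNRD1, thioredoxin reductase, stood at 243 and 239 CPM, against 412 to 474 CPM, and HMOX1, haem oxygenase, at 59.0 and 25.5 CPM, against 34.7 to 43.1 CPM. NFE2L2, which encodes NRF2, was level at 68.7 and 72.1 CPM, against 59.6 to 70.6 CPM.

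Prostaglandin genes went both ways, with 4 of 17 higher and 2 lower in the pair, or 3 and 2 of 16 without the marker PTGS2. Without it the shares were 18.75% and 12.5%, against 5.11% and 2.46% of all genes. HPGD, one of the higher genes at 1.42 and 1.52 CPM, reached the 1 CPM floor only in the pair. PTGS2 stood at 337 and 359 CPM in the pair, against 3.50, 3.53 and 4.35 CPM with siNOX4 and 2.66 CPM in siControl replicate 2, a gap of 69.5-fold. PLA2G4A, the phospholipase that frees arachidonic acid, stood at 16 and 18.0 CPM, against 2.35 to 3.53 CPM, and the receptor PTGER3 at 11.8 and 18.0 CPM, against 1.08 to 2.26 CPM. PTGES, the inducible synthase that turns the product of PTGS2 into prostaglandin E2, was lower, at 40.7 and 32.8 CPM against 121 to 159 CPM. The receptor PTGFR was lower as well, at 9.21 and 12.9 CPM against 29.1 to 34.5 CPM.

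Inflammatory genes of the NF-kB list were higher for 7 of 27 and lower for 2 (25.9% and 7.41%, against 5.11% and 2.46% of all genes). TNFAIP6, a hyaluronan-binding protein, stood at 9.45 and 6.46 CPM in the pair, against at most 0.636 CPM in the other 4. It thus reached the 1 CPM floor only in the pair. NFKBIA, the inhibitor that NF-kB itself induces, stood at 701 and 896 CPM, against 185 to 212 CPM. TNF was 19.5 and 24.7 CPM, against 4.96 to 6.74 CPM, CXCL1 97.9 and 84.1 CPM, against 26.6 to 32.9 CPM, and IL6 47.9 and 54.6 CPM, against 18.9 to 22.1 CPM. The chemokine CXCL5 (5.43 and 4.81 CPM, against 22.4 to 29.2 CPM) and the survival gene BCL2A1 (2.89 and 2.62 CPM, against 7.73 to 13.7 CPM) were lower, and CXCL8 missed the 2-fold gap at 3547 and 4699 CPM, against 1632 to 1914 CPM. Of 25 interferon response genes, DDX58, IFIT2 and MX1 were higher and 0 lower. The RNA sensor DDX58 stood at 33.6 and 32.2 CPM, against 6.26 to 6.83 CPM, while the abundant IFI27 overlapped (532 and 370 CPM, against 401 to 550 CPM).

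The higher genes with the widest gaps, by a rule that ranks protein-coding genes by gap at 5 CPM or more in the pair, were led by PRSS35, a secreted protease-like protein. PRSS35 was counted 3100 and 2737 times in the pair, against 1, 0 and 0 times with siNOX4 and 1 time in siControl replicate 2. COL3A1, a fibrillar collagen, was counted 179 and 187 times in the pair and not at all in the other 4, at least 52.9-fold higher when each of the 4 is given 3 counts. MRPS24, of the mitochondrial ribosome, stood at 45.2 and 49.9 CPM, against 1.08 to 1.30 CPM in the other 4. Of 78 mitochondrial ribosomal protein genes, 3 were higher (3.85%, below the 5.11% of all genes) and 0 lower. RELN, an extracellular guidance protein, stood at 13.3 and 10.54 CPM, against at most 0.127 CPM, and the G protein subunit GNA14 at 12.7 and 13.0 CPM, against 0.121 to 0.254 CPM. The lens filament gene BFSP1, the myosins MYO7A and MYH15, the small GTPase RAB17, the zinc finger gene ZNF114, the lysyl oxidase LOXL4 and NXPH2, a secreted ligand of neurexins, had 8.92 to 36.0 CPM in the pair, against at most 1.75 CPM in the other 4. The arf GTPase-activating protein AGFG2 stood at 164 and 146 CPM, against 8.19 to 11.6 CPM, and the transcription factor MECOM at 67.8 and 72.8 CPM, against 4.06 to 6.35 CPM. ESR2, oestrogen receptor beta, stood at 78.2 and 93.1 CPM, against 3.26 to 5.69 CPM. It overlaps SYNE2 on the other strand, which was itself at 350 and 360 CPM against 38.0 to 47.1 CPM, and strand use in counting is not given, so ESR2 and SYNE2 cannot be told apart. NPNT, an integrin ligand that overlaps INTS12, stood at 31.1 and 25.3 CPM against 1.21 to 1.61 CPM, with INTS12 at 17.5 and 17.2 CPM against 14.3 to 18.5 CPM.

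Of the angiogenic factors, VEGFC, the lymphatic growth factor, stood at 218 and 232 CPM in the pair, against 20.7 to 25.0 CPM in the other 4. VEGFA missed the 2-fold gap at 1546 and 1688 CPM, against 648 to 780 CPM, and PDGFA was lower, at 5.55 and 4.93 CPM against 14.3 to 18.4 CPM. The collagen-binding integrin chain ITGA2 stood at 844 and 892 CPM, against 127 to 149 CPM, and ITGB8, which frees TGF-beta, at 113 and 130 CPM, against 14.2 to 17.8 CPM. PC, pyruvate carboxylase, stood at 192 and 180 CPM in the pair, against 39.3 to 45.7 CPM in the other 4.

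**Figure D4:**
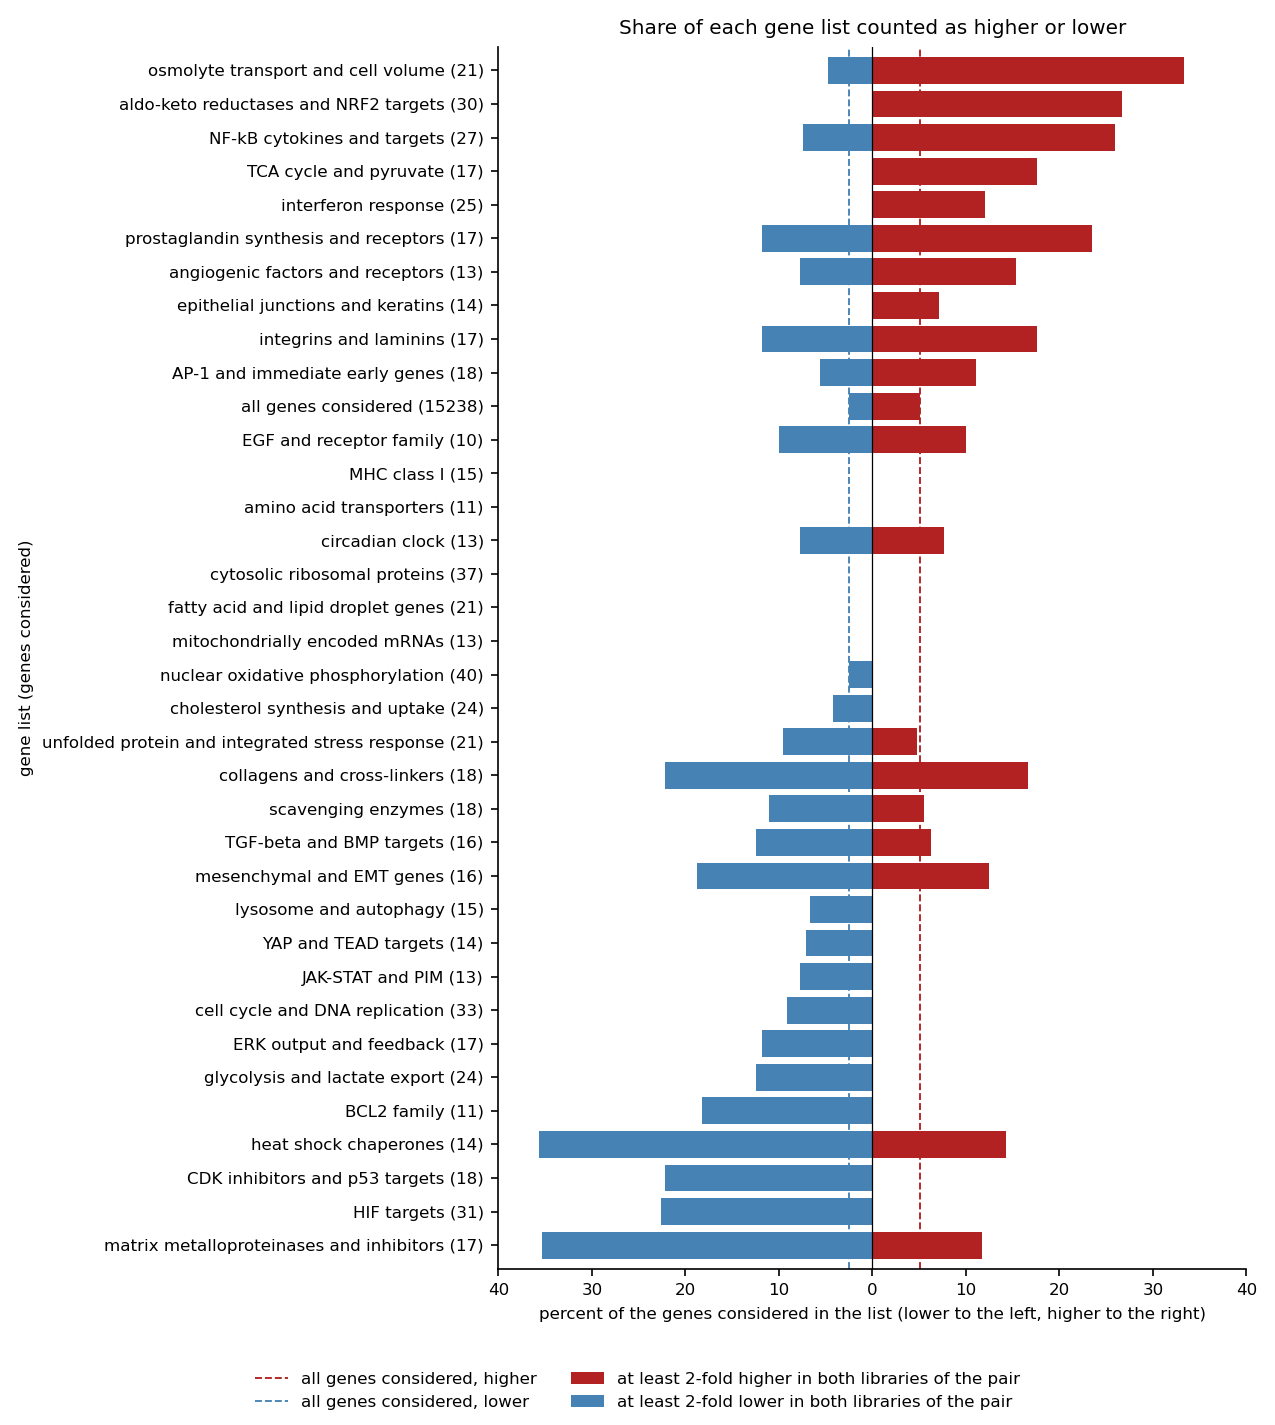
Share of the genes considered in each list of at least 10 genes that were at least 2-fold higher (red, right) or lower (blue, left) in both libraries of the pair than in all other 4 normoxia libraries. Dashed lines mark all 15238 genes, at 5.11% higher and 2.46% lower. Lists run from the largest excess of higher over lower genes at the top, osmolyte genes, to the reverse at the bottom, matrix metalloproteinases. The markers that chose the pair are included, as are genes that reached 1 CPM only in the pair.

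Heat shock chaperones were the most marked of the lower genes. In the list, 5 of 14 were lower and 2 were higher in the pair (35.7% and 14.3%, against 2.46% and 5.11% of all genes). Of the 14, 12 lay below all other 4 normoxia libraries, as did 33.4% of all genes. HSPA1A, the inducible HSP70, stood at 42.1 and 35.8 CPM in the pair, against 953, 925 and 535 CPM in siNOX4 normoxia replicates 1 to 3 and 602 CPM in siControl replicate 2. Its near copy HSPA1B stood at 18.6 and 20.4 CPM, against 459, 415 and 259 CPM with siNOX4 and 270 CPM in siControl replicate 2, and reads may not be split safely between the copies. HSPA6 stood at 2.30 and 1.52 CPM, against 19.6 to 38.0 CPM. The pair was below every other normoxia library, and the other 4 were themselves uneven, with siNOX4 replicates 1 and 2 above siNOX4 replicate 3 and siControl replicate 2. The constitutive HSPA8 (247 and 257 CPM, against 832 to 1333 CPM) and the co-chaperone DNAJB1 (203 and 224 CPM, against 716 to 1153 CPM) were lower too. HSPH1, an HSP110 exchange factor that salt is known to induce, was higher at 887 and 948 CPM, against 232 to 303 CPM, as was HSPB8 at 78.0 and 90.0 CPM, against 25.6 to 29.4 CPM. In hypoxia HSPA1A stood at 67.2 to 79.0 CPM in all 6 libraries, below the other 4 normoxia libraries as well. Heat shock factor 1 drives the inducible HSP70 genes through heat shock elements. The promoters are shown because these genes lead the lower side, and they give the 250 bases before the start site from RefSeq (GRCh38.p14), on the gene's strand from 5′ to 3′, with the heat shock element core GAANNTTC in capitals.
HSPA1A, chr6:31815293-31815542, plus strand: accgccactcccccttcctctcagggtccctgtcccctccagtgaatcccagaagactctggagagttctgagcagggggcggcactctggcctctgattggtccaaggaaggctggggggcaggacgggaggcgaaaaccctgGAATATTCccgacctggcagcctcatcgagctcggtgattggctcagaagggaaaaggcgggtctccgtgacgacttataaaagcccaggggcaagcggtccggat
HSPA1B, chr6:31827488-31827737, plus strand: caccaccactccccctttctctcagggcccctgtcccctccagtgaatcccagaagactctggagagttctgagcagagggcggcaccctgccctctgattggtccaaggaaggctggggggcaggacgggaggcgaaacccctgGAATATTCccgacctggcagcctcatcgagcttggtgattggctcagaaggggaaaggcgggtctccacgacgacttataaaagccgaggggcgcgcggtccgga
HSPA6, chr1:161524290-161524539, plus strand: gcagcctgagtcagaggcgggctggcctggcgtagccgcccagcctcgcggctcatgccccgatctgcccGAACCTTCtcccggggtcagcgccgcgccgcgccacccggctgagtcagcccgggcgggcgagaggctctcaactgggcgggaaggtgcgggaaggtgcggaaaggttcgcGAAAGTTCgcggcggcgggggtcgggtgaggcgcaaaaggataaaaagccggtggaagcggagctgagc

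The core began 106 bases before the start in HSPA1A, 105 bases before it in HSPA1B and 180 and 69 bases before it in HSPA6. DEPP1, also among the lower genes, held it 11 bases before its start. Of the 42 genes named by marker or gap, 27 had a window in the RefSeq table, which runs from 250 bases before to 50 bases after the start. In these windows, the core on either strand was found in 17 of 238 lower genes (7.14%), 26 of 509 higher genes (5.11%), 4.85% of all genes considered and 6.87% of all 27305 promoters. The TonE core TGGAAA, the letters at the centre of the NFAT5 site, was found on either strand in 17.7% of higher genes, 16.8% of lower genes, 15.4% of all genes considered and 21.1% of all promoters. The longer TonE consensus was found in 5.30% of higher genes, 2.52% of lower genes, 3.16% of all genes considered and 5.02% of all promoters. The hypoxia response element core ACGTG was found in 23.2% of higher genes, 26.5% of lower genes and 26.6% of all genes considered. For the antioxidant response element core TGACNNNGC these shares were 15.3%, 14.7% and 15.2%. The AP-1 site TGANTCA was found in 7.66%, 8.82% and 4.96%, and in 7.76% of all promoters. Among the named higher genes with a window, the TonE core was found in GNA14 and MYH15, and the longer consensus in GNA14 but not in MYH15. The lower gene FZD1 held the TonE core as well. The core was not in the windows of SLC5A3, AKR1B1, PTGS2, AKR1C2 or PRSS35. Sequence more than 250 bases before the start was not searched, so an absence here says nothing of sites further away. The MYH15 window is shown as the match nearest to a start site that lies wholly before it, with the core in capitals as read on the gene's strand (its reverse complement).
MYH15, chr3:108510597-108510846, minus strand: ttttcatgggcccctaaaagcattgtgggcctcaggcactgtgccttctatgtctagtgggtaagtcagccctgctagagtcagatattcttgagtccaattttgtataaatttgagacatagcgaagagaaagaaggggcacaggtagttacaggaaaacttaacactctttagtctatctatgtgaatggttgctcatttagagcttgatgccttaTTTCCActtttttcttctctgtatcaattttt

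It began 32 bases before the start. A match of letters is a description and not a site, and no test was made of these shares.

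Hypoxia-inducible genes were lower in the pair although all 6 normoxia libraries had the same oxygen label. Of 31 HIF targets considered, 0 were higher and 7 lower (22.6%) at 2-fold, against 5.11% higher and 2.46% lower of all genes. Of the 31, 28 lay below all other 4 normoxia libraries, as did 33.4% of all genes. ADM, the vasodilator peptide adrenomedullin, stood at 35.8 and 41.8 CPM in the pair, against 371, 363 and 276 CPM with siNOX4 and 306 CPM in siControl replicate 2. NDRG1, a growth-linked stress gene, stood at 252 and 240 CPM, against 1389, 1481 and 1305 CPM with siNOX4 and 1532 CPM in siControl replicate 2. Carbonic anhydrase CA9 stood at 8.80 and 7.55 CPM, against 27.5 to 35.6 CPM, and the lipoprotein lipase inhibitor ANGPTL4 at 59.99 and 45.6 CPM, against 223 to 262 CPM. The summed level of the list was 7285 and 7386 CPM in the pair, against 10720 to 11870 CPM in the other normoxia libraries and 21320 to 22200 CPM in hypoxia. By this sum the other normoxia libraries lay between the pair and hypoxia, but single members differed. Of the 7 lower targets, 4 were above the other normoxia libraries in all hypoxia libraries and 2 were below them. ADM (211 to 233 CPM in hypoxia) and the glucose carrier SLC2A3 (85.97 and 96.2 CPM in the pair, 187 to 227 CPM in hypoxia, 322 to 358 CPM in the other 4) were the 2 whose hypoxia levels lay between the pair and the other 4. HIF1A, which encodes the oxygen-regulated subunit and was named after its values were seen, was the other way, at 3894 and 4636 CPM in the pair, against 2026 to 2245 CPM. VEGFA was the HIF target that lay above the other 4, and under scaling by total counts alone 1 target was counted as higher. That scaling moved the median of all genes in the pair by 0.10 on the log2 scale against the other 4.

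Glycolysis and lactate export had 0 of 24 higher and 3 lower (12.5%, against 2.46% of all genes). Of the 24, 18 lay below all other 4, as did 33.4% of all genes. Hexokinase HK2 stood at 117 and 131 CPM, against 306 to 343 CPM, and PGK1 at 636 and 560 CPM, against 1311 to 1445 CPM. The median log2 difference of this list from siControl replicate 2 was −0.48 and −0.50 in the pair, against −0.10 to 0.00 with siNOX4, and at most 0.02 over all genes. TXNIP, a brake on glucose uptake that binds thioredoxin, stood at 11.2 and 13.0 CPM in the pair, against 161, 205 and 183 CPM with siNOX4 and 199 CPM in siControl replicate 2. In hypoxia TXNIP stood at 503 to 580 CPM.

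**Figure D5:**
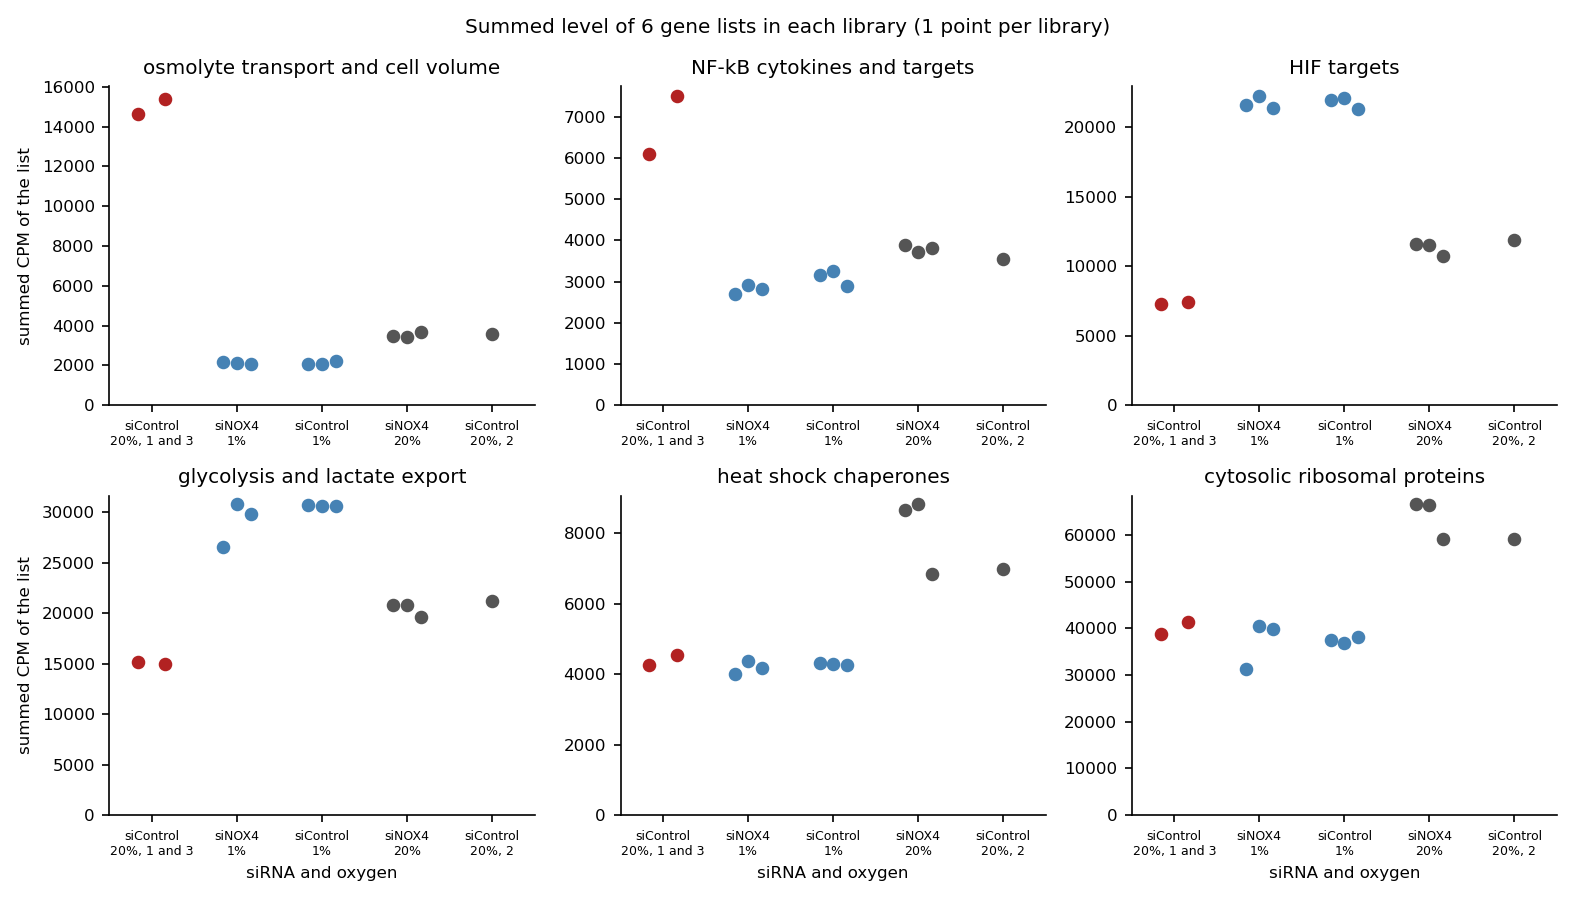
Summed CPM of 6 gene lists in each library, 1 point per library. The pair (red) stands left of hypoxia (blue) and the other normoxia libraries (grey). The osmolyte list sums to 14630 and 15380 CPM in the pair against at most 3691 CPM elsewhere, mostly through the markers that chose the pair (5122 and 6178 CPM against at most 2592 CPM without them), and the HIF list to 7285 and 7386 CPM against at least 10720 CPM.

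Cytosolic ribosomal protein genes moved together by less than 2-fold. All 37 considered lay below the other 4 normoxia libraries under each of 4 scalings, where 33.4% of all genes did so under the main one, and 0 passed 2-fold. Their median log2 difference from siControl replicate 2 was −0.62 and −0.50 in the pair, against 0.01 to 0.17 with siNOX4. Their summed level was 38840 and 41370 CPM in the pair, against 59060 to 66600 CPM in the other normoxia libraries and 31200 to 40440 CPM in hypoxia. Of 13 mitochondrially encoded mRNAs, 0 passed 2-fold in either direction, and the replicates of the pair differed in them, with MT-CO3 at 124 and 56.8 CPM.

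Matrix and cytoskeletal genes went both ways. Of the metalloproteinases and their partners, 6 of 17 were lower, 2 higher and 9 neither. Collagens and their cross-linkers had 4 of 18 lower and 3 higher, integrins and laminins 2 of 17 lower and 3 higher, and myosins and stereocilia genes 0 of 6 lower and 2 higher. Of the higher members, the myosin MYO7A and the collagens COL3A1 and COL17A1 reached the 1 CPM floor only in the pair. Over all genes considered, 2.46% were lower and 5.11% higher, and these lists are short. PLAUR, the urokinase receptor, stood at 51.1 and 53.4 CPM, against 218 to 267 CPM, and MMP14 at 78.9 and 69.1 CPM, against 200 to 225 CPM. ADAMTS1, a secreted protease, stood at 120 and 130 CPM, against 881, 883 and 980 CPM with siNOX4 and 856 CPM in siControl replicate 2. Of 14 keratin genes considered, taken by name, 5 were lower (35.7%, against 2.46% of all genes) and 0 higher. The separate list of epithelial junctions and keratins had 0 of 14 lower and 1 higher (7.14%, against 5.11% of all genes), which was CLDN1. KRT17 stood at 22.2 and 22.6 CPM, against 127 to 164 CPM, and KRT81 at 69.8 and 64.8 CPM, against 405 to 471 CPM. KRT81 and its near copy KRT86, at 2.24 and 2.50 CPM against 9.52 to 10.2 CPM, also overlap. COL4A1 of the basement membrane stood at 20.7 and 22.7 CPM, against 98.6 to 131 CPM, beside its overlapping partner COL4A2 at 255 and 263 CPM, against 574 to 623 CPM. CTGF, a target of YAP, stood at 51.4 and 54.8 CPM, against 300 to 354 CPM, but 13 of the 14 YAP and TEAD targets were not counted.

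Growth control genes were lower where counted. Of 18 CDK inhibitors and p53 targets, 4 were lower (22.2%, against 2.46% of all genes) and 0 higher. They were led by CDKN1C at 66.7 and 58.2 CPM, against 284 to 331 CPM. Of 33 cell cycle and replication genes, 3 were lower (9.09%) and 0 higher. The mitotic kinase CDK1 stood at 6.495 and 6.64 CPM, against 16.9 to 17.6 CPM, and MCM7, the most abundant member not counted, at 137 and 146 CPM, against 140 to 152 CPM. Other lower genes with the widest gaps were ADA, adenosine deaminase (11.2 and 12.7 CPM, against 61.6 to 66.4 CPM), HES4 of the Notch pathway (12.5 and 14.4 CPM, against 86.8 to 105 CPM), the Wnt receptor FZD1 (4.55 and 4.08 CPM, against 22.1 to 25.5 CPM) and the histone gene HIST2H2BE (0.354 and 0.731 CPM, against 5.20 to 14.0 CPM). DEPP1 and SLFNL1 had at most 3.13 CPM in the pair, against 13.8 to 20.2 CPM, and WDR66 stood at 14.8 and 18.8 CPM, against 80.9 to 89.8 CPM.

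Thyroid lineage factors parted. CDH16, the kidney and thyroid cadherin, stood at 156 and 132 CPM in the pair, against 3.88, 3.00 and 4.23 CPM with siNOX4 and 4.45 CPM in siControl replicate 2. PAX8 was higher at 1735 and 1640 CPM, against 457 to 551 CPM, beside its overlapping antisense RNA PAX8-AS1 at 252 and 258 CPM, against 78.5 to 96.0 CPM. NKX2-1 was lower at 43.3 and 46.8 CPM, against 131 to 142 CPM, and FOXE1 lay below the other 4 by less than 2-fold, at 23.6 and 20.2 CPM against 27.5 to 35.8 CPM. The differentiation genes TG, TSHR and SLC5A5 had at most 0.318 CPM in any normoxia library, at or near 0 on both sides of the split. Of 19 thyroid genes, 12 were below the floor of 1 CPM in 2 libraries.

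Defining markers of other cell types were mostly at or near 0, but some lists moved with the pair. Of 10 endothelial markers, PECAM1 was higher at 30.6 and 22.2 CPM in the pair, against 2.20 to 3.63 CPM, TIE1 was lower by less than 2-fold at 11.2 and 15.4 CPM, against 26.9 to 37.4 CPM, and CDH5, VWF and EMCN had at most 0.670 CPM. The endothelial list summed to 86.1 and 77.8 CPM in the pair, against 83.6 to 90.3 CPM in the other 4. Of 12 macrophage and blood cell markers, CD14 was higher at 7.14 and 5.97 CPM, against 0.804 to 1.97 CPM, and PTPRC had at most 0.118 CPM in the pair, while ITGAM, TYROBP and HBB had no count in any normoxia library. That list summed to 9.45 and 8.22 CPM in the pair, against 2.20 to 4.17 CPM. Of 10 fibroblast and mural markers, DES was higher at 5.84 and 3.17 CPM, against at most 0.0666 CPM, while DCN, PDGFRA and FAP had at most 0.472 CPM in the pair, and the list summed to 52.9 and 39.8 CPM, against 49.9 to 53.01 CPM. Of 12 liver and kidney epithelium markers, SERPINA1, a secreted protease inhibitor, was higher at 94.0 and 76.3 CPM, against 14.5 to 21.5 CPM, while TTR, APOB and UMOD had no count in any normoxia library. That list summed to 97.8 and 79.3 CPM in the pair, against 16.02 to 23.1 CPM in the other 4. The 10 neural and muscle markers summed to 77.2 and 91.99 CPM, against 41.4 to 44.4 CPM, mostly through the vesicle protein SYT1 at 70.97 and 85.2 CPM, against 34.8 to 37.8 CPM, and MYOD1 and MYOG had no count. The part of other cell types in the split was not tested. CDH1 had no count in any normoxia library, and the epithelial keratins KRT7 and KRT8 were expressed in all.

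Among the 6 hypoxia libraries 35 to 110 of the genes considered in normoxia were at least 2-fold apart. On that gene set none stood apart as the pair did. The siRNA comparison at 1% oxygen did not choose the libraries, so it was tested by edgeR's quasi-likelihood test on the 6 hypoxia libraries, siNOX4 against siControl. Of 16335 genes tested, 8 (0.049%) passed at a Benjamini-Hochberg adjusted p under 0.05, and 1736 (10.6%) had an unadjusted p under that value. Of the 657 higher genes tested, 0 passed in edgeR, and 64 (9.74%) had an unadjusted p under 0.05. DESeq2 called 3 of them. Of the 356 lower genes tested, 1 passed, which was MME, a membrane metallopeptidase, at a log2 fold change of 0.37 (SE 0.06, edgeR adjusted p = 0.038), and 71 (19.9%) had an unadjusted p under 0.05. DESeq2 called 3 of the lower genes. With no filter on low counts edgeR called 11 higher and 10 lower genes. Leaving out siNOX4 hypoxia replicate 1 gave 2 and 2, leaving out siNOX4 hypoxia replicate 2 gave 1 higher gene and 0 lower, and the other 4 such fits and the fit of all 12 libraries gave 0 and 0. The median log2 fold change was −0.02 over the higher genes and 0.07 over the lower genes, against 0.00 over all genes. Without siNOX4 hypoxia replicate 1 the count of genes that passed was 48, and without siControl hypoxia replicate 2 it was 0.

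In siNOX4 cells the change from oxygen could be set beside the split, although its normoxia libraries also served in the choice of the pair, so the values stand as a list. Of 16294 genes tested, 11403 (70.0%) passed in edgeR. Of the 18 osmolyte genes tested, 9 were lower and 5 higher in hypoxia. SLC5A3 had a log2 fold change of −2.63 (SE 0.09, edgeR adjusted p = 2.3e-13) and AKR1B1 of −1.20 (SE 0.10). AKR1C2 and CDH16 were also lower (−1.84 and −2.19), and PTGS2 was higher by 0.97 (SE 0.18). Among the genes that were lower in the pair, HSPA1A (−3.51), HSPA1B (−3.67), KRT81 (−4.54), KRT17 (−3.06) and ADAMTS1 (−1.56) were lower in hypoxia, and TXNIP (1.60) and NDRG1 (0.84) were higher. ADM was also lower in hypoxia (−0.54, SE 0.09). SLC6A12 and PRSS35 were not tested in edgeR here because their counts were too low in both siNOX4 groups. MRPS24 (−0.13, SE 0.32) did not pass, and CTGF passed at a small change (−0.29, SE 0.09, edgeR adjusted p = 0.0093), which it did not keep without siNOX4 hypoxia replicate 2 (−0.18). The named genes that part the pair had changes with oxygen of either sign.

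Replicates 1 and 3 differed from each other by 2-fold for 137 genes, with 78 higher in replicate 1 and 59 higher in replicate 3. SGK1 (360 and 736 CPM), the stress enzyme HMOX1 (59.0 and 25.5 CPM) and MT-CO3 were among them.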

How the data were processed

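Total RNA of BCPAP cells was made into TruSeq RNA libraries and sequenced, per the labels' protocols. Raw gene counts for each library were deposited as whole numbers, and the authors also gave FPKM, which the file headers name and which are scaled by gene length and library total. For tools and builds, Bowtie 0.12.2, mm8 and mm9 stand in the submitters' processing notes, without a role, although both builds are of mouse. The sources used here name no counter, strand setting or treatment of reads with several matches. All 58735 gene IDs matched GENCODE 29 on GRCh38 by identifier, start and end, and 12 gene names turned into dates were restored.

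Counts were scaled to CPM with TMM factors (0.903 to 1.09) over all 12 libraries. Genes were counted by the gap between nearest libraries, as the text states, in Python 3.11.15 with pandas 2.3.3. Tests used edgeR 4.0.16 (R 4.3.3), the quasi-likelihood F test, the filterByExpr filter and Benjamini-Hochberg adjustment, and were tested on simulated data. The main tests did not pair samples by replicate number. Same-numbered deviations had correlations of −0.03 to 0.06 in the siRNA comparison in hypoxia and the oxygen comparison in siNOX4 cells. The siControl normoxia group was in neither, and such correlations do not show whether same-numbered samples were handled together.

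The members, the 48 gene lists (textbook knowledge) and the tests were chosen with earlier results of these data known. Named genes were the 5 markers, the 20 protein-coding genes with the widest gap in each direction at 5 CPM or more, up to 4 counted members of each list by widest gap, the most abundant member not counted, and NOX4. Other genes were named after their values were seen. Alternatives were other scalings, pseudocounts, filters and folds, FPKM, DESeq2 1.42.0, a replicate block and leaving out each library.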

Additional observations from a re-analysis of the deposited data

How the results depend on the processing

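All 132 named gaps kept their direction under the alternatives that were run, though 72 missed a 4-fold gap, 16 missed 2-fold on the authors' FPKM and 11 on total counts. The counts moved with the fold asked. At 1.5-fold, 1720 genes were higher and 1239 lower in the pair, and at 4-fold 159 and 28. With no minimum fold, added after the data were seen, they were 5284 and 5088. Leaving out each normoxia library gave 814 to 1000 higher and 392 to 600 lower genes, with 600 lower without siControl normoxia replicate 1. Total counts shifted the pair against the other 4 by 0.10 log2 units, and upper-quartile scaling by −0.08, with 76.0% and 60.6% of counted genes higher, against 67.5%. In hypoxia, siNOX4 against siControl gave 25 genes with the replicate block, 47 with DESeq2, 226 with no filter, 0 in a fit of all 12 libraries and 0 to 48 leaving out each library. The oxygen change of MRPS24 ranged from −0.23 (without siNOX4 hypoxia replicate 2) to 0.043 (without siNOX4 hypoxia replicate 3, where it changed sign), and that of CTGF did not pass under upper-quartile scaling (−0.21) or without siNOX4 hypoxia replicate 2 (−0.18). The cause was not tested. The block changed no call of a named gene in the oxygen comparison.

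With 2 libraries in the pair, its spread rests on 1 difference. Any difference in culture, date or handling of these libraries cannot be told apart from the state itself, since the labels give none. Low genes were limited by depth, since 3 counts in a library came to at most 0.20 CPM in the other 4.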
